A study of Mus musculus with 4 samples.

Results

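Fcer2a-positive, Fcrl5-negative B cells were examined in MC38 tumours, among cells sorted for B220 or CD138. Fcer2a encodes CD23, the low-affinity IgE receptor that follicular B cells of the mouse carry, and Fcrl5 encodes an Fc receptor-like protein of other B cell subsets. Members were chosen by their own transcript counts: a barcode had to hold 200 or more genes, at most 10% mitochondrial UMIs, 3 or more UMIs (unique molecular identifiers, 1 per captured transcript) of the B cell receptor component Cd79a, under 5 of the plasma cell gene Jchain, 1 or more of Fcer2a and 0 of Fcrl5. These measured values are given below only as a description. By this rule 193 of the 1713 deposited barcodes were members, 71 in the knockout library and 122 in the control library. The remaining Cd79a-positive, Jchain-low cells, 233 in the knockout library and 119 in the control library, are called the other Cd79a-positive cells.

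The knockout group, labelled Blimp-1 KO, was Prdm1 f/f with a cre that acts in B cells, and the control group was Prdm1 f/f without cre, so both carried the floxed alleles. All recipients were C57BL/6 females aged 12 to 16 weeks bearing subcutaneous tumours of MC38, a mouse colon carcinoma line, and 11 recipients per genotype were pooled 18 days after inoculation. The sorted B220+ and CD138+ cells were combined in proportions not given in the sources used here, which can set any share of all cells. Each genotype had 1 library of 5′ gene expression and 1 of B cell V(D)J sequences, and the genotypes carried different date stamps, so genotype, pool and library batch cannot be told apart. With 1 library per genotype no test was possible. Every interval is a 95% interval of counting error only, exact Poisson for levels, exact conditional binomial for ratios and Clopper-Pearson for shares. For a share of 0 the limit given is instead 3 counts over the cells counted, which lies below the Clopper-Pearson bound. For switched control members it was 10.3%, against a bound of 11.9%.

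Follicular B cells are the resting, recirculating majority of the mature B cells in lymphoid organs. They carry unmutated receptors with IgM and IgD on the surface and use Cxcr5 and Ccr7 to enter lymphoid organs and their follicles. After antigen contact a B cell can switch its heavy chain constant region, and its V regions can gain mutations. Both leave a mark in the receptor sequence, which the membership rule did not read.

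Expression libraries differed in depth, with 5463434 UMIs over 897 barcodes in the knockout library and 6976374 UMIs over 816 barcodes in the control library. Members held a median of 2630 UMIs in the knockout library and 2954 in the control library, against 2871 in the other knockout cells and 3395 in the other control cells. The libraries shared 3 cell barcodes, none of them a member. Prdm1 (ENSMUSG00000038151, chromosome 10, positions 44437174 to 44528558, GRCm38), which encodes Blimp-1, gave 1 UMI in the knockout members and 0 in the control members. In Jchain-high cells it gave 0 UMIs in 6 knockout cells and 43 UMIs in 47 control cells, and in cells without Fcer2a or Fcrl5 it gave 15 UMIs in 164 knockout cells and 2 UMIs in 95 control cells. The labels do not say which exons are floxed, and a 5′ tag outside them does not check the deletion.

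The members' heavy chains carried few or no V region mismatches, and the sequences of 1 V gene show what separated them from a clone outside the members. IGHV6-3 (chromosome 12, positions 114391712 to 114392010, GRCm38) was used by 5 members, 4 in the knockout library and 1 in the control library, and 4 of the 5 had the commonest IGHV6-3 sequence. The largest knockout clone with this gene held 14 cells and no member, and 8 of its cells shared 1 V sequence. The stretch from the start of complementarity-determining region 1 to the end of region 2, positions 76 to 177 counted from 1 at the start of framework 1, is shown in lower case, with capitals for bases that differ from the members' sequence.
IGHV6-3, members without a mismatch: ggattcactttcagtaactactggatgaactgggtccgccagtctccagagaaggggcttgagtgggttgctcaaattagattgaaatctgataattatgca
IGHV6-3, largest knockout clone: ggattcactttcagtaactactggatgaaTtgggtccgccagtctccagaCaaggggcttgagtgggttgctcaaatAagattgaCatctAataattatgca
The clone differed from the members by C105T, G126C, T153A, A161C and G166A in this stretch, and by G18A, C212T, G268T and A273G outside it, the members' base being given first. The fifth IGHV6-3 member, a knockout IgM cell with 4 Fcer2a UMIs, differed by G268A alone. This cell is among the 8 knockout members with UMIs of another lineage described below, with 2 UMIs of stroma or tumour markers. It is shown from position 253 to 282 above the commonest sequence, with the differing base in capitals.
IGHV6-3, the member with a mismatch: atgaacaacttaaggActgaagacactgga
IGHV6-3, commonest sequence at that window: atgaacaacttaagggctgaagacactgga
The only other member with a heavy chain mismatch used IGHV4-1 (chromosome 12, positions 113948284 to 113948577) and carried C210A and C222T, shown from position 201 to 231.
IGHV4-1, the member with 2 mismatches: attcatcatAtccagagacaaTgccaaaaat
IGHV4-1, commonest sequence at that window: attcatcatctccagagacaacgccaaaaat
No germline V gene sequence was used here, so a mismatch is a difference from the commonest sequence of the same V gene over all cells, for V genes seen in 3 or more cells, and an allele that few cells carry would count as mismatched. Members helped to set that reference: the commonest IGHV6-3 sequence was held by 6 of 23 sequences counted once per clone, the 4 members among them. With references from non-members only, an alternative chosen after seeing the data, 3.92% of knockout and 0% of control members had a heavy chain mismatch.

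Receptor sequences were recovered unequally. A contig was found for 68 of 71 members (95.8%) in the knockout library and 37 of 122 members (30.3%) in the control library, and for 227 of 233 other knockout cells and 55 of 119 other control cells. The members' heavy chain contigs rested on a median of 3074 reads in the knockout library and 55 in the control library, with a median of 14 UMIs in both. The control values therefore describe 35 members with a heavy chain contig.

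Mismatched V regions were rarer among the members than among the other Cd79a-positive cells in both libraries. In the knockout library 2 of 59 members (3.39%, 0.413 to 11.7%) had 1 or more heavy chain mismatches, against 88 of 202 other cells (43.6%, 36.6 to 50.7%). In the control library 0 of 33 members did, which allows up to 9.09% by 3 counts, against 21 of 50 other cells (42.0%, 28.2 to 56.8%). The intervals of members and other cells do not meet in either library. They count cells of 1 clone as separate draws, although 37 of 222 other knockout cells and 3 of 55 other control cells were in clones of 2 or more cells. No member was in such a clone, so the intervals of the other cells are too narrow by an amount that was not measured. Members reached at most 2 mismatches in the knockout library and 0 in the control library, and the other cells reached 26 in the knockout library and 21 in the control library. With called doublets left out, 1.72% of the evaluable knockout members had a heavy chain mismatch. Light chains gave the same order, with 2 of 57 knockout members (3.51%) against 62 of 197 other knockout cells (31.5%), and 0 of 33 control members against 15 of 50 other control cells.

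**Figure D1:**
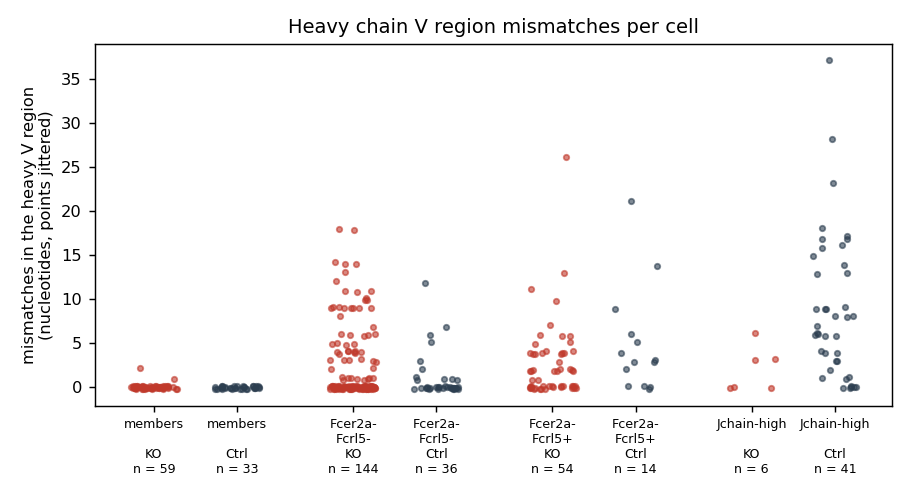
Heavy chain V region mismatches (nucleotides, vertical axis) in each cell with an evaluable contig, by class and library, with the number of cells below each column. The members lie at 0 except for 2 knockout cells, while cells without Fcer2a or Fcrl5 reach 18 mismatches and Jchain-high control cells (35 of 41 mismatched) go higher.

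Mismatched cells were few at every number of Fcer2a UMIs that a member held. Among Fcrl5-negative knockout cells, 57 of 144 with 0 Fcer2a UMIs were mismatched (39.6%), 1 of 31 with 1 UMI, 0 of 17 with 2 UMIs and 1 of 11 with 3 or more. Among Fcrl5-negative control cells it was 11 of 36 with 0 UMIs (30.6%), 0 of 12 with 1 UMI, 0 of 8 with 2 UMIs and 0 of 13 with 3 or more. Each bin of members held few cells, and the step lay between 0 and 1 Fcer2a UMI in both libraries.

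The members were almost all unswitched. Among 67 knockout members with a constant gene, 57 were IGHM, 8 were IGHD (11.9%), 1 was IGHG2B and 1 was IGHA, so 2 were switched (2.99%, 0.364 to 10.4%). Among 29 control members with a constant gene, 23 were IGHM and 6 were IGHD (20.7%), and 0 were switched, which allows up to 10.3%; 6 further contigs had no constant gene. Other Cd79a-positive cells were switched in 25 of 222 knockout cells (11.3%, 7.42 to 16.2%) and 7 of 48 control cells (14.6%, 6.07 to 27.8%), so these intervals overlap those of the members. IGHD contigs were found in 3.15% of the other knockout cells and 8.33% of the other control cells.

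The 2 switched members are shown by their heavy chain CDR3, from the conserved cysteine codon to the tryptophan codon, because they depart from the class.
IGHV5-12 with IGHJ4, IGHG2B: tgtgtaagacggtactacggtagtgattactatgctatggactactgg
IGHV10-1 with IGHJ2, IGHA: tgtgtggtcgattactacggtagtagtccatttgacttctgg
The IGHG2B cell (IGHV5-12, chromosome 12, positions 113702126 to 113702419) held 1 Fcer2a UMI, 6 of Ighg2b, 8 of Ighg2c and 0 of Ighm among 7428 UMIs. The IGHA cell (IGHV10-1, chromosome 12, positions 114479007 to 114479451) held 2 Fcer2a UMIs, 18 of Igha and 31 of S100a6 among 12250 UMIs, the deepest member of either library. Neither V gene was seen in enough cells to count mismatches.

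No clone was shared between the members with a recovered heavy chain. Cells with the same IGHV gene, IGHJ gene and CDR3 nucleotides were counted as a clone, and 0 of 67 knockout members and 0 of 35 control members belonged to one of 2 or more cells, which allows up to 4.48% in the knockout library and 8.57% in the control library. Of the other cells 37 of 222 (16.7%) in the knockout library and 3 of 55 (5.45%) in the control library did. The knockout members used 42 IGHV genes and the control members 26, with a median CDR3 of 14 codons in both. IGHV1-26, IGHV14-2, IGHV5-17 and IGHV6-3 led in the knockout library with 4 members each, followed by IGHV1-53, IGHV3-6 and IGHV9-3 with 3 each. IGHJ2 was the commonest joining gene, in 24 of 67 knockout members (35.8%) and 14 of 35 control members (40.0%). Lambda light chains were found in 8 of 68 knockout members and 2 of 35 control members. IGLV1 in 6 and IGKV6-15 in 4 led the light chains of the knockout members.

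The CDR3 sequences of the 5 IGHV6-3 members show that they were separate rearrangements despite their near-identical V regions.
Knockout, IGHJ4, 14 codons: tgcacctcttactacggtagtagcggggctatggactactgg
Knockout, IGHJ4, 14 codons: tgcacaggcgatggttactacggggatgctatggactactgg
Knockout, IGHJ2, 15 codons: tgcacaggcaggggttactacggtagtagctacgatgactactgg
Knockout, IGHJ2, 13 codons: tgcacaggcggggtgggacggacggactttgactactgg
Control, IGHJ1, 16 codons: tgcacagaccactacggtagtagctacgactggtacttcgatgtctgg
Largest knockout IGHV6-3 clone, no member, IGHJ3, 10 codons: tgcacagacccgggttcggtagtgggctgg

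Members made up a smaller share of the Cd79a-positive cells in the knockout library. They were 71 of 304 cells (23.4%, 18.7 to 28.5%) in the knockout library and 122 of 241 cells (50.6%, 44.1 to 57.1%) in the control library. Of all cells that passed the filters they were 8.12% in the knockout library and 15.2% in the control library. Fcrl5-positive, Fcer2a-negative cells ran the other way, with 65 (21.4%) in the knockout library and 20 (8.30%) in the control library, and 4 cells in each library held both transcripts. With each cell thinned to 1500 UMIs the members were 46 of 273 (16.8%, 12.6 to 21.8%) in the knockout library and 77 of 221 (34.8%, 28.6 to 41.5%) in the control library. Both sets of intervals stay apart, but the value comes from 1 pool per genotype and was known when the class was chosen.

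**Figure D2:**
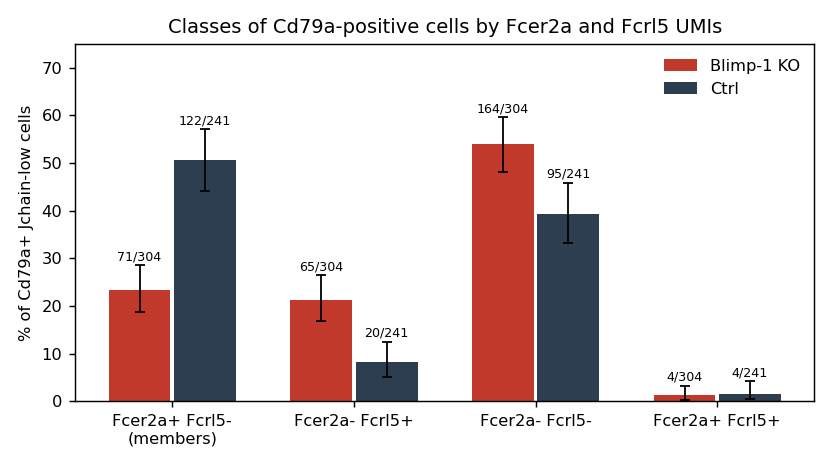
Share of Cd79a-positive, Jchain-low cells (%, vertical axis) in each class of Fcer2a and Fcrl5 UMIs, with red bars for Blimp-1 KO, dark bars for Ctrl and 95% Clopper-Pearson intervals. Members are 71 of 304 cells in the knockout library and 122 of 241 in the control library.

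The rule sat close to the detection limit of Fcer2a (ENSMUSG00000005540, chromosome 8, positions 3680280 to 3694174). Exactly 1 Fcer2a UMI decided 35 of the 71 knockout members and 52 of the 122 control members, 2 UMIs were held by 22 knockout and 25 control members, and 3 or more by 14 knockout and 45 control members, with a maximum of 5 in the knockout library and 9 in the control library. By the rule itself, the other Cd79a-positive cells could hold Fcer2a only where Fcrl5 was also present. They held 4 Fcer2a UMIs in the knockout library and 14 in the control library, each over 4 cells. No Fcer2a background from free RNA was detected: 0 of 585 knockout and 0 of 528 control barcodes with under 3 Cd79a UMIs held it, which allows up to 0.513% in the knockout library and 0.568% in the control library, although barcodes with 0 Cd79a UMIs were deeper (medians of 5292 UMIs in the knockout library and 7545 in the control library). Cd79a itself had a median of 13 UMIs in knockout members and 14 in control members, and the lowest held 4 in the knockout library and 3 in the control library.

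The remaining markers of the label were unequal in how far they set the members apart. These ratios and all that follow between members and other cells are descriptions, since the same counts chose the cells. Vpreb3 (chromosome 10, positions 75943024 to 75949657), an endoplasmic reticulum protein that escorts the receptor in B cells, was at 280 CPM (counts per 1000000 UMIs of the summed cells) in knockout members and 62.3 CPM in other knockout cells, a ratio of 4.50 (3.12 to 6.49). In the control library it was at 346 CPM in members and 177 CPM in other cells, a ratio of 1.96 (1.5 to 2.55). Ebf1 (chromosome 11, positions 44618100 to 45008096), a transcription factor of B cell identity, was 1.60-fold (1.33 to 1.92) higher in knockout members and 1.82-fold (1.55 to 2.12) higher in control members. Fcmr (chromosome 1, positions 130865777 to 130880790), the IgM Fc receptor, had ratios of 1.20 (1.0 to 1.42) in the knockout library and 1.53 (1.32 to 1.78) in the control library. Cxcr5 (chromosome 9, positions 44511787 to 44526444), the follicle-homing receptor, had ratios of 1.07 (0.699 to 1.61) in the knockout library and 2.14 (1.44 to 3.21) in the control library. Of the 4 markers that the rule did not use, all passed 1.5-fold in the control library, whereas Cxcr5 and Fcmr did not pass it in the knockout library.

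Markers of immature, germinal centre and plasma cell stages were sparse in the members and also in the other Cd79a-positive cells. Rag1, Rag2, Dntt, Igll1, Vpreb1 and Cd93, which mark immature B cells, gave 0 UMIs in the members of both libraries. They summed to 3 UMIs in the other knockout cells and 1 in the other control cells. A wider list of immature and transitional B cell genes ran the other way. Of its 4 measured genes, 2 were past 1.5-fold higher in the members of both libraries and 0 lower. Its median log2 ratios were 0.88 in the knockout library and 0.69 in the control library. Rgs13, a germinal centre marker, gave 0 UMIs in the members of both libraries. It also gave 0 UMIs in the other Cd79a-positive cells, so it does not set the members apart. The germinal centre list of 6 markers summed to 16 UMIs in knockout members and 13 in control members. On these few UMIs it was higher in members: 67.92 against 37.37 CPM in other knockout cells, and 33.87 against 17.04 CPM in other control cells. A wider list of 10 germinal centre genes was lower in the members. It was at 148.6 against 202.4 CPM in the knockout library and 91.2 against 141.4 CPM in the control library. The Sdc1 transcript (CD138) gave 0 UMIs in the members and in the other control cells. The plasma cell list of 6 markers was at 93.4 CPM in knockout members and 147 CPM in other knockout cells. In the control library it was at 93.8 CPM in members and 98.8 CPM in other cells. Cr2, which encodes the complement receptor CD21, was at 50.9 CPM in knockout members and 42.6 CPM in other knockout cells, a ratio of 1.20 (0.573 to 2.32), and at 93.8 CPM in control members and 39.2 CPM in other control cells, a ratio of 2.39 (1.38 to 4.23).

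Across genes with 50 or more UMIs over members and other cells in each library, 74 of 2498 (2.96%) were past 1.5-fold higher in the members of both libraries and 109 (4.36%) were past 1.5-fold lower. In a single library, 8.77% of 3078 genes were past 1.5-fold higher and 15.8% lower in knockout members, and 10.1% of 2599 genes higher and 12.7% lower in control members. The median log2 ratio of all genes measured was -0.05 in the knockout library and -0.03 in the control library. The higher genes included receptors of the resting, recirculating state and transcription factors of the mature B cell, and the lower genes included Apoe, Plac8, Mzb1, S100a6 and enzymes of glycolysis.

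Of 16 measured genes on a list of follicular and naive B cell genes, 4 were past 1.5-fold higher in both libraries and 0 lower, with median log2 ratios of 0.48 in the knockout library and 0.66 in the control library. Ighd, the IgD constant region, was at 395 CPM in members and 121 CPM in other cells of the knockout library (ratio 3.25, 2.45 to 4.30), and at 393 CPM in members and 138 CPM in other cells of the control library (2.85, 2.16 to 3.78). Ccr7 was at 713 and 255 CPM in knockout members and other knockout cells, a ratio of 2.79. In control members and other control cells it was at 573 and 339 CPM, a ratio of 1.69. Of the 168 Ccr7 UMIs in knockout members, 57 were in 1 cell. Without the 8 knockout members with UMIs of another lineage, described below, 93 were left. Cd55, which encodes a brake on complement, had ratios of 2.11 (1.59 to 2.78) in the knockout library and 2.70 (2.08 to 3.54) in the control library. Ighm differed little, with ratios of 0.93 in the knockout library and 1.04 in the control library, so it was the IgD transcript rather than the IgM transcript that set the members apart.

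Of 18 B cell transcription factors, 3 were past 1.5-fold higher in both libraries and 0 lower. They were Ebf1, Bach2 (2.60 in the knockout and 2.11 in the control library), which holds B cells back from plasma cell differentiation, and Ets1 (1.79 in KO, 2.10 in Ctrl). Of 14 immediate early genes, 6 were higher and 0 lower, with median log2 ratios of 0.71 in the knockout library and 0.66 in the control library: Fos (2.47 in KO, 1.73 in Ctrl), Jun (2.17 in KO, 2.07 in Ctrl), Junb (2.07 in KO, 1.52 in Ctrl), Jund (1.52 in KO, 1.72 in Ctrl), Klf6 (2.13 in KO, 1.70 in Ctrl) and the early activation antigen Cd69 (1.68 in KO, 1.76 in Ctrl). Single genes higher in both libraries included Fchsd2 (2.58 in KO, 2.41 in Ctrl), Lrrk2 (3.24 in KO, 2.92 in Ctrl) and Zfp318 (2.69 in KO, 2.49 in Ctrl). Zfp318 is required for IgD expression. Its log2 ratio in the knockout library was -0.70 with cells thinned to 1500 UMIs and members chosen again from the thinned counts. The IL-21 receptor Il21r (1.91 in KO, 1.90 in Ctrl) and Fcrl1 (2.22 in KO, 1.53 in Ctrl) were also higher in both libraries.

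**Figure D3:**
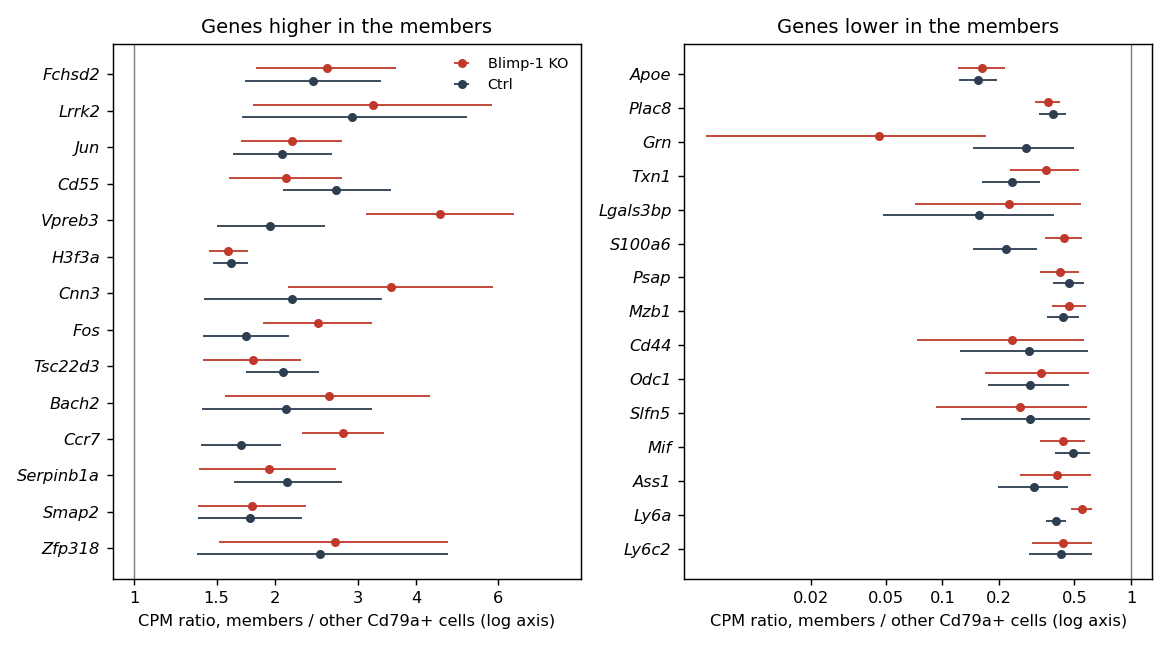
Ratio of summed CPM in members over the other Cd79a-positive cells (horizontal log axis) for genes named by rule as higher (left) or lower (right), with red points for Blimp-1 KO, dark points for Ctrl and 95% counting intervals. All intervals lie on 1 side of 1; Vpreb3 (4.50 in KO, 1.96 in Ctrl) is the higher gene in which the libraries differ by the most.

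Apoe, a lipid carrier, was at 221 CPM in members and 1357 CPM in other cells of the knockout library, and at 227 and 1460 CPM in members and other cells of the control library, a ratio of 0.16 in both. All 3 measured genes of the marginal zone and B1 list were lower in both libraries: Plac8 (0.36 in KO, 0.38 in Ctrl), Mzb1 (0.47 in KO, 0.44 in Ctrl), a chaperone of immunoglobulin secretion, and Zbtb20 (0.34 in KO, 0.38 in Ctrl). Of 11 measured memory and atypical B cell genes, 5 were lower and 0 higher, namely S100a6, Ahnak, Itgb1, Lgals1 and the adhesion receptor Cd44 (0.23 in KO, 0.29 in Ctrl). S100a6 was at 382 CPM in members and 866 CPM in other cells of the knockout library, and at 83.4 and 382 CPM in members and other cells of the control library. Of 7 glycolytic genes, 5 were lower and 0 higher, with Gapdh at 0.48 in KO and 0.39 in Ctrl and Ldha at 0.54 in KO and 0.37 in Ctrl. Of 12 interferon response genes, 4 were lower and 0 higher in both libraries, among them Ly6a (0.55 in KO, 0.40 in Ctrl) and Bst2 (0.53 in KO, 0.30 in Ctrl).

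Antigen presentation genes did not pass the cut-off in both libraries. Of 14 measured MHC class II presentation genes, 0 were past 1.5-fold in the same direction in both libraries, with median log2 ratios of 0.12 in the knockout library and 0.31 in the control library. Cd74, the invariant chain, was at 23750 CPM in members and 21832 CPM in other cells of the knockout library, and at 28835 and 22759 CPM in members and other cells of the control library. Class I presentation had 0 of 16 past 1.5-fold in both libraries, and oxidative phosphorylation 0 of 15.

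Thinning each cell to 1500 UMIs gave the share of cells with a UMI at equal depth. The members here were those chosen at full depth. This left 70 members and 224 other cells of the knockout library and 119 members and 118 other cells of the control library. Ighd was found in 51.4% of knockout members and 17% of other knockout cells, and in 46.2% of control members and 22.9% of other control cells. Vpreb3 was found in 35.7% of knockout members and 11.2% of other knockout cells, and in 33.6% of control members and 24.6% of other control cells. Apoe was found in 20% of knockout members and 51.8% of other knockout cells, and in 18.5% of control members and 40.7% of other control cells.

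Cells without Fcer2a and Fcrl5 UMIs were split by V region mismatches and set beside the members. In the knockout library Ighd was at 503 CPM in the 59 members with an evaluable heavy chain, at 193 CPM in 87 Fcer2a-negative, Fcrl5-negative cells with 0 mismatches and at 37.4 CPM in 57 such cells with 1 or more. S100a6 was at 81.8 CPM in the members, 668 CPM in the cells with 0 mismatches and 1141 CPM in those with 1 or more. Apoe was at 152, 1523 and 1164 CPM in the same 3 sets and Plac8 at 573, 2054 and 2001 CPM, so for Apoe and Plac8 the knockout cells with 0 mismatches were closer to the mismatched cells than to the members. The 59 members held 14 S100a6 UMIs, while the IGHA member, whose V gene could not be evaluated, alone held 31. Over all knockout members the S100a6 level was higher, as given above, than in these 59. In the control library Ighd was at 442 CPM in 33 members, at 350 CPM in 25 such cells with 0 mismatches and at 0 UMIs in 11 such cells with 1 or more. Ebf1 was at 729 CPM in the members, 1007 CPM in the cells with 0 mismatches and 219 CPM in those with 1 or more, S100a6 at 188, 106 and 438 CPM, and Apoe at 246, 1230 and 3794 CPM. Plac8 was at 795, 541 and 801 CPM, so unlike in the knockout library it was not lower in the members than in the cells with 0 mismatches. In both libraries Ighd was higher in the cells with 0 mismatches than in the mismatched cells, while Apoe in the cells with 0 mismatches was above its level in the members.

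Within the members, levels were also set out by Fcer2a UMI count. Among Fcrl5-negative cells with 0, 1, 2 and 3 or more Fcer2a UMIs, Ighd was at 144, 412, 351 and 435 CPM in the knockout library and at 180, 327, 443 and 434 CPM in the control library. Ebf1 was at 467, 677, 593 and 915 CPM in the knockout library and at 637, 1014, 980 and 843 CPM in the control library. Plac8 was at 1886, 814, 799 and 618 CPM in the knockout library and at 695, 340, 524 and 607 CPM in the control library. For Ighd the step lay between 0 and 1 UMI in both libraries, and the 3 bins of members overlapped in their intervals, as they did for Ebf1. Plac8 in control members was higher with 3 or more UMIs (491 to 742 CPM) than with 1 UMI (254 to 446 CPM), while in knockout members the intervals of the bins overlapped.

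**Figure D4:**
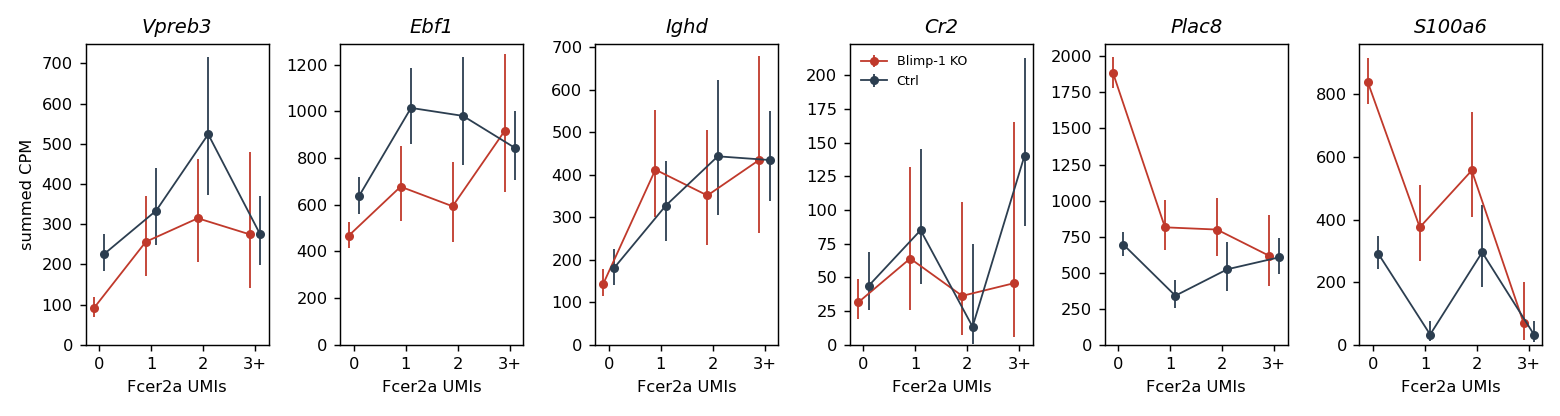
Summed CPM (vertical axes, each panel on its own scale) of 6 genes in Fcrl5-negative Cd79a-positive cells by Fcer2a UMI count (horizontal axes), with red for Blimp-1 KO, dark for Ctrl and 95% Poisson intervals. Ighd steps up between 0 UMIs (144 CPM in KO, 180 CPM in Ctrl) and 1 UMI (412 CPM in KO, 327 CPM in Ctrl).

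The members of the 2 genotypes were then set side by side. Among 1636 genes with 50 or more UMIs over both libraries' members, 101 (6.17%) were past 1.5-fold higher in knockout members and 136 (8.31%) past 1.5-fold lower, with a median log2 ratio of -0.05 over all measured genes. Of 3822 genes measured in the other Cd79a-positive cells, 6.44% were higher and 5.97% lower in the knockout library. Dividing the members' ratios by the median ratio of all genes turned this into 128 higher and 109 lower, so the balance of directions depends on the scaling. These markers of the class were lower in knockout members, none of them past 1.5-fold. Fcer2a was at 569 CPM in knockout members and 774 CPM in control members, Ebf1 at 692 CPM in knockout and 938 CPM in control members, Fcmr at 717 CPM in knockout and 943 CPM in control members, and Vpreb3 at 280 CPM in knockout and 346 CPM in control members. The ratios were 0.74 (0.59 to 0.90) for Fcer2a, 0.74 (0.61 to 0.89) for Ebf1, 0.76 (0.63 to 0.92) for Fcmr and 0.81 (0.59 to 1.09) for Vpreb3. Leaving out the 8 knockout members with UMIs of another lineage, described next, gave 0.83, 0.82, 0.84 and 1.0 for the same 4 genes. Ighd (395 CPM in knockout and 393 CPM in control members, ratio 1.0, 0.77 to 1.31) and Ighm (1027 CPM in knockout and 961 CPM in control members, ratio 1.07) had ratios near 1.

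Some knockout members carried transcripts of another lineage. With 2 or more UMIs of the marker list of another lineage, 8 of 71 knockout members and 0 of 122 control members stood out, beside 18 of 233 other knockout cells and 10 of 119 other control cells. Of those 8 cells, 7 had a heavy chain contig of their own. They were led by 1 cell with 237 UMIs of erythroid markers, 1 with 30 of NK markers, 1 with 23 of macrophage markers, and 2 with 10 and 13 of T cell markers. Scrublet marked 1 knockout member and 0 control members as doublets, and 1 knockout member held 2 heavy chain CDR3 sequences. Whether these barcodes held more than 1 cell was not tested further, and ratios without the 8 cells, which can rest on under 50 UMIs, are given for the genes named below where stated.

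Many of the genes highest in knockout members had most of their UMIs in 1 cell. Of the 12 named by rule, 8 had over 50% of their knockout UMIs in 1 cell: Hbb-bs had 202 UMIs, all in 1 cell, Gzmc 212 of 235 UMIs, Gzmd 90 of 94, and Cst3 408 of 496. The Cst3 ratio of 6.31 became 0.87 without the 8 cells, and the Tyrobp ratio of 5.31 became 0.95. S100a6, a calcium-binding protein of memory and atypical B cells, was at 382 CPM in knockout members and 83.4 CPM in control members (4.58, 3.03 to 7.09). It came from 90 UMIs in 10 of 71 knockout cells and 32 UMIs in 7 of 122 control cells, and its ratio was 2.40 without the 8 cells. Gzmc, a granzyme of cytotoxic lymphocytes, was also found at 1 or a few UMIs in members outside the 8 cells, which held 21 UMIs in the knockout library and 1 UMI in the control members. In barcodes with 0 Cd79a UMIs Gzmc was at 12051 CPM in the knockout library and 10207 CPM in the control library, and in the other Cd79a-positive cells it was at 1818 CPM in the knockout library and 13.6 CPM in the control library, so the difference was also present outside the members. Without the 8 cells the ratio of Txndc17 was 2.32 (3.19 with all members), that of Lgals1 was 1.97 (3.98) and that of Marcksl1 was 1.92 (3.42). With cells thinned to 1500 UMIs and members chosen again from the thinned counts, Lgals1 had a log2 ratio of -1.06.

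Genes lower in knockout members were spread over many cells. All 12 named by rule had ratios past 1.5-fold without the cell with the most UMIs in each library, and 11 of 12, all but Klf2, without the 8 cells. Pax5 (ENSMUSG00000014030, chromosome 4, positions 44524748 to 44710694), a transcription factor that maintains B cell identity, was at 46.7 CPM in knockout members and 122 CPM in control members, a ratio of 0.38 (0.18 to 0.75) with all members and 0.32 without the 8 cells. Klf2 (ENSMUSG00000055148, chromosome 8, positions 72319062 to 72321654), which holds lymphocytes in a quiescent and recirculating state, was at 1307 CPM in knockout members and 2009 CPM in control members (0.65, 0.57 to 0.74, and 0.68 without the 8 cells). Tsc22d3, the glucocorticoid-induced leucine zipper, was at 433 CPM in knockout and 771 CPM in control members and had a ratio of 0.56, which became 0.66 without the 8 cells. Pxdc1 was at 38.2 CPM in knockout and 141 CPM in control members (0.27, 0.12 to 0.55, and 0.32 without the 8 cells), and Bmyc at 123 CPM in knockout and 242 CPM in control members (0.51, 0.32 to 0.78, and 0.60 without them). Of 18 B cell transcription factors, 2 were past 1.5-fold lower, Pax5 and Klf2, and 0 higher, with 14 below 1 and a median log2 ratio of -0.27. The other Cd79a-positive cells gave nearly the same: 2 past 1.5-fold lower, 0 higher, 13 below 1 and a median of -0.26. In cells without Fcer2a or Fcrl5, Pax5 was at 57.9 CPM in the knockout library and 107 CPM in the control library. The lower level of this list was therefore not particular to the members. Irf8 was above 1, at 424 CPM in knockout members and 305 CPM in control members (1.39, 1.06 to 1.83, and 1.35 without the 8 cells).

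The series concerns antigen presentation by B cells when the plasma cell fate is blocked, so presentation genes were set side by side in the members. MHC class II genes lay slightly below 1 in knockout over control members. Of 14 measured genes 13 lay below 1, 1 was past 1.5-fold lower (Ciita, 0.57, from 13 UMIs in knockout and 37 in control members) and 1 past 1.5-fold higher (Lgmn, 1.59). Neither stayed past it without the 8 cells (Ciita 0.69, Lgmn 1.07). The list had a median log2 ratio of -0.28 that became -0.11 without the 8 cells. Cd74 was at 23750 CPM in knockout members and 28835 CPM in control members (0.82, 0.80 to 0.85). H2-Aa was at 6499 CPM in knockout and 7899 CPM in control members (0.82, 0.77 to 0.88), and H2-Ab1 at 3366 CPM in knockout and 4252 CPM in control members (0.79, 0.73 to 0.86). Without the 8 cells the ratios were 0.90 for Cd74, 0.90 for H2-Aa and 0.86 for H2-Ab1, and in the other Cd79a-positive cells they were 0.96, 0.94 and 0.87. No class II gene other than Ciita and Lgmn passed the 1.5-fold cut-off.

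All 7 measured interferon response genes were higher in knockout members, 4 of them past 1.5-fold (Ifi27l2a, Bst2, Ifi47 and Irgm1). Without the 8 cells none of the 4 was called: Ifi27l2a had a ratio of 1.41 and Bst2 of 1.45 (1.68 with all members), Ifi47 had a ratio of 1.30, and Irgm1, with 19 UMIs in knockout members and 27 in control members, was under the minimum of 50 UMIs. The list's median log2 ratio of 0.63 became 0.43 without the 8 cells, and it was -0.04 in the other Cd79a-positive cells. Ifi27l2a was at 1392 CPM in knockout members and 901 CPM in control members (1.54, 1.32 to 1.80, and 1.41 without the 8 cells), while in the other cells its ratio was 0.83. Ly6a was at 1206 CPM in knockout and 821 CPM in control members (1.47, 1.25 to 1.73, and 1.41 without the 8 cells), against a ratio of 1.08 in the other cells. In barcodes with 0 Cd79a UMIs the ratios were 0.57 for Ifi27l2a and 0.82 for Ly6a, so neither transcript was more abundant in the non-B cells of the knockout library. Isg15 (37 UMIs in knockout members, 21 of them in 1 cell, and 3 in control members) and Ifit3 (29 UMIs in knockout and 3 in control members) were too rare to count. Of 16 class I genes 11 lay above 1 and 5 below, and 1 was past 1.5-fold higher (Psme2, 1.80, and 1.23 without the 8 cells). B2m, the class I light chain, was at 2292 CPM in knockout members and 1605 CPM in control members (1.43, 1.27 to 1.61, and 1.32 without the 8 cells), against a ratio of 0.95 in the other cells.

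**Figure D5:**
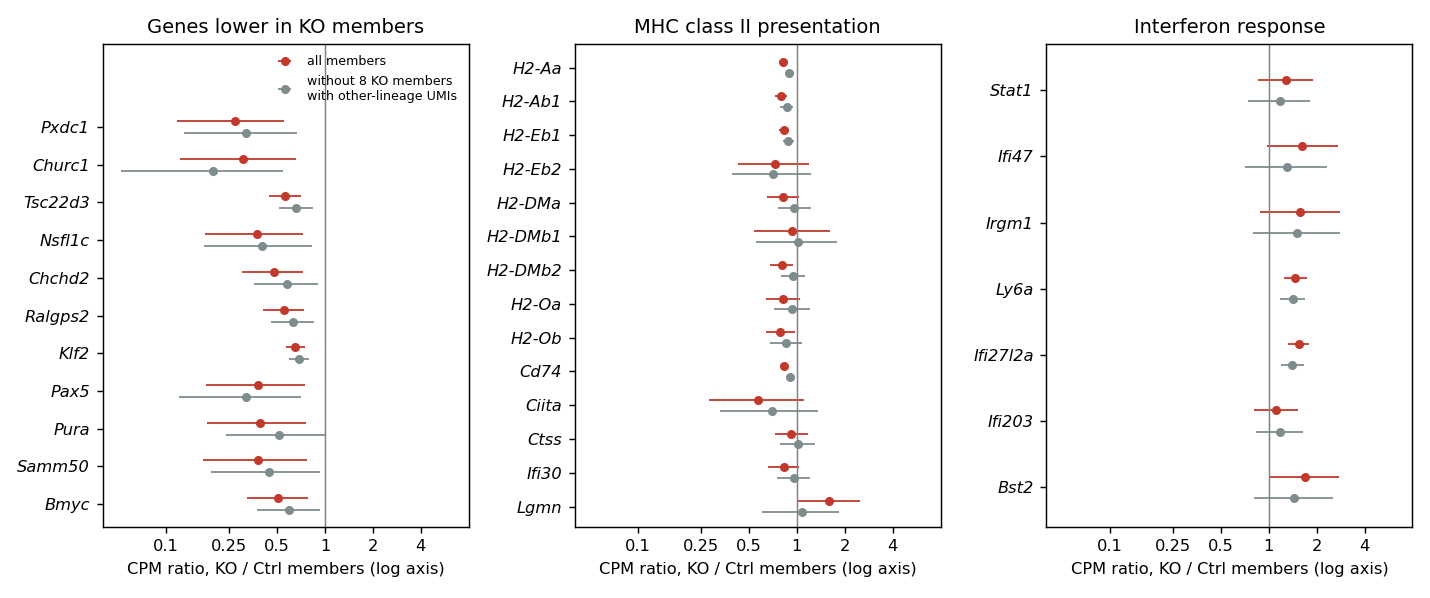
Ratio of summed CPM in Blimp-1 KO members over Ctrl members (horizontal log axes) for lower genes named by rule, the measured MHC class II genes and the measured interferon response genes, with 95% counting intervals; red points use all members and grey points leave out the 8 KO members with other-lineage UMIs. Pax5 (0.38) and Klf2 (0.65) stay below 1 in both sets, and the class II genes move towards 1 without the 8 cells.

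Other lists gave few calls between the genotypes. Of 6 measured memory and atypical genes, 3 were past 1.5-fold higher in knockout members (S100a6, Anxa2 and Lgals1). The median log2 ratio of 1.18 became 0.16 without the 8 cells and turned to -0.12 without each gene's top cell. With cells thinned to 1500 UMIs and members chosen again from the thinned counts, the median was -0.22. Of 13 immediate early genes, 1 was lower, Btg2 at 229 CPM in knockout members and 401 CPM in control members (0.57, 0.41 to 0.78, and 0.60 without the 8 cells). Of 4 costimulation genes 2 were lower, Cd24a (0.66, 0.49 to 0.89, and 0.74 without the 8 cells) and Cd48 (0.66, 0.43 to 1.01, and 0.66 without them), and of 2 measured genes of the Il4 response list Il21r was lower (0.52, 0.30 to 0.86, and 0.65 without them). Of 6 genes of the BAFF and survival list 2 were higher, the kinase Pim1 (1.91, 1.23 to 2.97, and 1.51 without the 8 cells) and the NF-kappaB subunit Nfkb2 (1.77, 1.09 to 2.88, and 1.83 without them). Plac8 was at 773 CPM in knockout members and 485 CPM in control members (1.59, 1.29 to 1.97, and 1.70 without the 8 cells), and its ratio in the other Cd79a-positive cells was 1.69. Plasma cell and secretion genes (8 measured), homing genes (10) and oxidative phosphorylation genes (15) had 0 past 1.5-fold.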

How the data were processed

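For expression the authors deposited UMI counts of each gene in each barcode called as a cell. Per the file headers they used Cell Ranger 6.0.0, and per the submitters' processing notes the GRCm38 (mm10) build. The deposited V(D)J tables hold read and UMI counts per contig. The V(D)J reference was not given in the sources used here. Gene positions came from RefSeq (GRCm38). Contig sequences came from the deposited tables.

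Members and gene lists were chosen with earlier results of these data known. UMI counts were summed per class and library and scaled to CPM. A gene was measured with 50 or more UMIs over the 2 groups compared and called past 1.5-fold. Against the other cells, a call needed the same direction in both libraries. There was 1 library per genotype, so no test was run. Genes were named by the bound of the ratio interval nearest to 1 (15 per direction against the other cells, 12 between genotypes), leaving out genes of the rule, immunoglobulin, T cell receptor, mitochondrial, ribosomal and predicted genes, plus list members with the most UMIs. A gene at 0 was set to 3 counts.

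Contigs were joined by barcode. Isotype was that of the heavy chain contig with the most UMIs. Mismatches were counted from framework 1 to framework 3. Doublets were called with Scrublet (Scanpy 1.11.5) and kept. Lineage markers of 9 other cell types were summed per cell. The counting and ratio steps were tested on simulated data. Python 3.11.15, numpy 2.4.6, pandas 2.3.3 and scipy 1.17.1 were used. Alternatives covered thresholds, scaling, thinning to 1500 UMIs, doublets and left-out cells. Results for a few genes were left out of the text and figures.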

Additional observations from a re-analysis of the deposited data

Results flagged for a closer look

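For 3 named genes the ratio of Fcer2a-positive over other Cd79a-positive cells was past 1.5-fold in opposite directions in the libraries. The difference between libraries was not tested. Tyrobp was 1.62-fold in the knockout library (88 UMIs in members, 222 in other cells) and 0.26-fold in the control library (27 UMIs in members, 156 in other cells), with 59 of the 88 UMIs in 1 cell. Txndc17 was 1.57-fold in the knockout library (45 UMIs in members, 117 in other cells) and 0.62-fold in the control library (23 UMIs in members, 57 in other cells). Nsfl1c was 0.62-fold in the knockout library (11 UMIs in members, 73 in other cells) and 1.71-fold in the control library (48 UMIs in members, 43 in other cells).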

How the results depend on the processing

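No paired analysis was possible because each genotype had 1 library. With 2 or more Fcer2a UMIs the members were 11.8% of Cd79a-positive cells in the knockout library and 29.0% in the control library, genes past 1.5-fold between genotypes were 65 higher and 86 lower, and lists with a median past 1.5-fold against the other cells were 2, against 4. For the setting thinned to 1500 UMIs the rule was applied again to the thinned counts, so the members were not the same cells. The shares were then 16.8% and 34.8%, and switched knockout members 0%. The genes past 1.5-fold against the other cells were 7 higher and 24 lower, those between genotypes 30 and 30, and the lists 1. A minimum of 20 UMIs gave 174 higher and 294 lower against the other cells and 388 and 556 between genotypes, and no minimum gave 491 and 602, and 1296 and 1733. At 2-fold the counts were 15 and 39, and 36 and 34. The number of genes measured changes with the rule, the thinning and the minimum, so the counts at those settings do not compare as shares. Other alternatives were chosen after seeing the data. Leaving out cells with other-lineage UMIs gave 2 lists, leaving out each gene's top cell gave 54 genes higher in knockout members, and counting Jchain-high cells among the others gave 183 higher and 164 lower. Lower calls between genotypes were 57.4% of calls, 46.0% when divided by the median ratio and 71.7% without top cells. Direction turned (log2) when thinned for Zfp318 in the knockout library (-0.70), Mif in the control library (0.14), Lgals1 between genotypes (-1.06) and the memory list between genotypes (-0.22); without other-lineage cells for Cst3 (-0.20), Tyrobp (-0.074) and Wnk1 (-0.19); without top cells for Wnk1 (-0.27) and the memory list (-0.12); and with Jchain-high cells for Psap in the control library (0.033). The causes were not tested. The control receptor values are limited by the 37 members with a contig.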
